A study of Saccharomyces cerevisiae with 12 samples.

Results

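To describe how the yeast transcriptome changes when both nuclear relaxing topoisomerases are lost, the 3 arrays of *top1Δtop2ts* were set against the 3 arrays of wild-type, 6 of the 12 arrays of the study. The arrays were chosen by their strain label, and 5449 genes of *Saccharomyces cerevisiae* were measured on each of them. Wild-type was W303, and *top1Δtop2ts* was W303 *top1::natr top2-1*, which carries a drug resistance marker at *TOP1* and whose *top2-1* allele encodes a temperature-sensitive enzyme. Both strains were grown in the rich medium YPD, synchronized in G1 by the mating pheromone α-factor for 90 min, and then kept in pheromone for 90 min at 37°C, where the mutant Top2p does not work. The study also holds 3 arrays each of *top1Δ* and *top2ts* under the same regime, and these entered the estimate of the spread. Every strain went through the same shift in temperature, so all values describe cells at 37°C, and the comparison holds 1 strain of each genotype.

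Topoisomerases remove the supercoils that form in DNA when polymerases move along it. Top1p, a type I enzyme, cuts a single strand and lets it swivel, whereas Top2p, a type II enzyme, passes a duplex through a double-strand break and is also needed to separate chromosomes in mitosis. Either enzyme can relax supercoils of both signs. The study arrested cells in G1 with the aim of keeping replication and mitosis out of the comparison. Its methods describe a check of the arrest in each sample by fluorescence-activated cell sorting, whose data are not shown. How complete the arrest was in each strain was not tested here.

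Signals were scaled so that the spike-in poly-A RNAs, which the methods describe as added to equal numbers of cells, had the same mean level on each array. The deposited spike-in level was 8.72 and 8.69 on the log2 scale in replicate 2 of wild-type and *top1Δtop2ts*, and between 9.32 and 9.54 in their other arrays. In another set of controls, the hybridization controls added after labelling, *top1Δtop2ts* replicate 2 stood apart at 9.50. Wild-type replicate 2 was the highest at 10.73, although its spike-in level was low. The other 4 arrays were between 10.49 and 10.63. The probe set at the 3′ end of 25S rRNA gave deposited signals of 11420, 112.2 and 3610.9 in wild-type replicates 1 to 3 and of 45.2, 190.2 and 183.7 in *top1Δtop2ts*. The ratio of the 3′ to the 5′ control probe set of *ACT1*, a measure of RNA integrity, was 1.23 to 1.24 in wild-type and 1.33 to 1.46 in *top1Δtop2ts*, without overlap, while the ratios for *TDH1*, *SPT15* and *WBP1* overlapped between the strains. The part of these differences in the results below was not tested. Counts without replicate 2 of wild-type or of *top1Δtop2ts* are given beside the main ones.

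*TOP1* reported on the genotype directly. Its scaled signal was 983, 1019 and 1098 in wild-type and 7.78, 0.285 and 0.631 in *top1Δtop2ts*. The latter arrays lay under the Tag level, the 95th percentile of probe sets that match no yeast transcript, which was 18.4 in the deposited signals and 15.0, 26.2 and 14.5 in these arrays after scaling. Against these levels *TOP1* was at least 57.8-fold lower (adjusted p = 7.51e-09). *TOP2* gave 3187, 2122 and 2972 in wild-type and 1811, 1709 and 1435 in *top1Δtop2ts*. The groups did not overlap, and the log2 change was -0.73 ± 0.19 (SE, adjusted p = 0.0027), close to the median of all genes and -0.14 with equal medians (adjusted p = 0.312). Without the pair of replicate 3 it was -0.56 (adjusted p = 0.0519). *TOP3*, the remaining topoisomerase of the nucleus, fell from 286, 230 and 295 to 104, 86.2 and 122, a log2 change of -1.38 ± 0.18 (adjusted p = 7.16e-06) with no overlap of the arrays.

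Most transcripts were less abundant in *top1Δtop2ts*, and few were more abundant. At an adjusted p under 0.05, 3595 of 5449 genes (66.0%) fell and 210 (3.85%) rose, which makes 69.8% in either direction, while 1644 did not pass. A change of 2-fold or more was reached by 1103 genes that fell (20.2%) and 63 that rose (1.16%), a change of 4-fold or more by 78 and 16, and one of 8-fold or more by 9 and 4. The median gene changed by -0.61 on the log2 scale, with medians of -0.63, -0.49 and -0.70 in the pairs of replicates 1, 2 and 3, and the quartiles of all genes were -0.93 and -0.29. Each array measured a whole culture, in which fewer cells with a transcript and less of it per cell cannot be told apart.

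**Figure D1:**
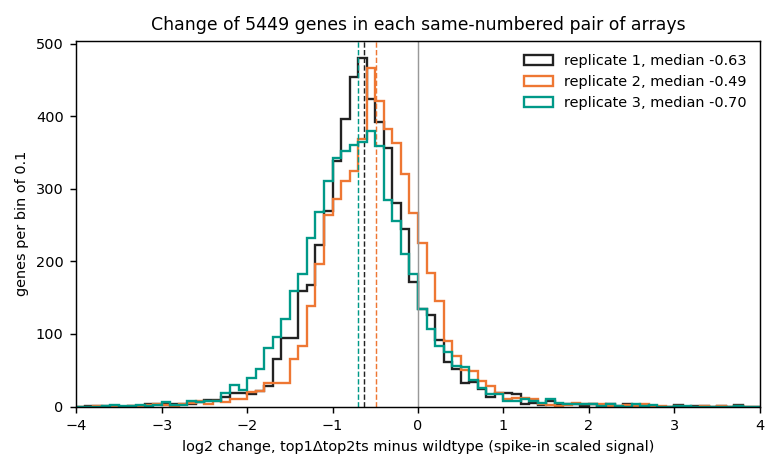
Histograms of the log2 change of 5449 genes (x axis, *top1Δtop2ts* minus wild-type, spike-in scaled signal; y axis, genes per bin of 0.1) for each same-numbered pair of arrays, with the medians as dashed lines. The 3 distributions are shifted to the left of 0 by medians of -0.63, -0.49 and -0.70.

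The shift was shared by the 3 pairs of arrays. A lower signal in *top1Δtop2ts* was found in all 3 pairs for 4141 genes, a higher one in all 3 for 362, and 946 genes changed sign between pairs. The 3 arrays of *top1Δtop2ts* lay below all 3 of wild-type for 3865 genes (70.9%) and above them for 267 (4.9%). Added up over the genes, signal in *top1Δtop2ts* came to 63.0%, 62.6% and 62.0% of its same-numbered wild-type array. Relative to the average wild-type array this was 62.5% ± 4.11 (SD, n = 3), and p was 0.1 in an exact two-sided permutation test, the smallest value that 3 arrays against 3 allow. Without wild-type replicate 2, 3836 genes fell and 165 rose, and without *top1Δtop2ts* replicate 2, 3113 fell and 207 rose.

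The size of this shift rested on the scaling. When arrays were instead set to equal medians, so that each gene is compared with the median gene, 1376 genes fell (25.3%) and 1270 rose (23.3%), 193 and 233 of them by 2-fold or more. All 1376 of these were among the genes that fell after spike-in scaling, and they included 1058 of the 1103 that fell 2-fold there. Of the 210 genes that rose, 209 did so on both scales. Equal medians move the change of every gene up by the same amount, so this overlap was largely fixed in advance. Scaling to the hybridization controls placed the median gene at -0.10 with replicate 2 of the strains and at -0.50 without that replicate number. Because a list of genes moves with the median of all genes under any such choice, each list below is given by its own median beside -0.61, and its counts are given with spike-in scaling first and with equal medians second.

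The 20 largest falls were led by *TOP1*, *TOS6* and *PCL1*, and further genes of the cell surface and the G1 program were among them. *TOS6*, which encodes a cell wall protein of the glycosylphosphatidylinositol (GPI) anchored type and is a target of the Start factor SBF, gave 2855, 1905 and 2716 in wild-type and 91.8, 62.2 and 70.7 in *top1Δtop2ts*. No array of the mutant came near the wild-type range, and the log2 change of -5.05 ± 0.18 (adjusted p = 3.27e-12) was the largest among genes expressed in both strains. *PCL1*, a G1 cyclin that binds the kinase Pho85p, gave 398, 159 and 250 against 14.7, 11.8 and 21.8. Its mean in *top1Δtop2ts* was at the level of the Tag probe sets, so it was at least 12.3-fold lower (adjusted p = 9.85e-09). *MNN1*, the Golgi enzyme that adds the terminal mannose to glycans, went from 3201, 2765 and 2745 to 385, 412 and 452, a log2 change of -2.80 ± 0.18 (adjusted p = 4.97e-09). *CSI2*, the neighbour of the deleted *TOP1*, was at 1849, 1723 and 1615 in wild-type and 226, 279 and 254 in *top1Δtop2ts*. Its log2 change was -2.78 ± 0.20 (adjusted p = 1.79e-08), while its mean in *top1Δ*, the other strain without *TOP1*, was 1555 ± 328 (SD, n = 3).

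Phosphate genes took 4 of the 20 places. *PHO89*, a sodium-coupled phosphate transporter, gave 4473, 3732 and 5088 in wild-type and 328, 374 and 291 in *top1Δtop2ts*, a log2 change of -3.74 ± 0.19 (adjusted p = 2.94e-10). *SPL2*, a regulator of low-affinity phosphate uptake, fell from 1491, 717 and 1503 to 70.5, 90.9 and 119. *PHO5*, the repressible acid phosphatase, fell from 3904, 1582 and 2392 to 267, 226 and 307, a log2 change of -3.21 ± 0.23 (adjusted p = 1.46e-08). In all of these the arrays of both strains were far apart, although wild-type replicate 2 was the lowest of the 3 wild-type arrays for each of *PHO89*, *SPL2* and *PHO5*. The high-affinity transporter *PHO84* was different in that respect, with its highest wild-type value in replicate 2 (9877, 13262 and 9683 against 1367, 1389 and 2321), and changed by -2.72 ± 0.21 (adjusted p = 2.69e-08).

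Among the other large falls were genes of chromatin, translation and the cell surface. The divergent histone genes *HTA2* and *HTB2*, for histones H2A and H2B, both changed by -2.82, with SE of 0.17 and 0.22. *HTA2* had 6782, 4959 and 5972 in wild-type and 877, 838 and 767 in *top1Δtop2ts*, and its probe set is marked as shared with other transcripts. *HTB2*, whose probe set is not, had 3101, 1579 and 2720 against 378, 361 and 279. The small subunit protein genes *RPS9A* and *RPS22B* changed by -3.23 ± 0.18 (adjusted p = 1.22e-09) and -2.72 ± 0.20 (adjusted p = 1.68e-08). *RPS9A* went from 5885, 6714 and 5668 to 755, 743 and 483, a gap of several fold between the nearest arrays. *YPS3*, a yapsin protease of the cell surface, went from 4737, 5095 and 4812 to 518, 612 and 636. The sulfate permease *SUL1* (-2.79), the mitotic cyclin *CLB1* (-2.85), the polyamine exporter *TPO3* (-2.86), *AIM20* (-3.31) and *SHH3* (-2.73), a homologue of a succinate dehydrogenase subunit, were also among them, together with *YMR230W-A*, a reading frame that was at least 4.37-fold lower, its mean in *top1Δtop2ts* being at the Tag level.

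The largest rises were smaller in number and began from low levels. *YFR057W*, a reading frame without a gene name beside a chromosome end, was at 4.36, 1.53 and 0.918 in wild-type, under the Tag level, and at 57.4, 54.7 and 56.8 in *top1Δtop2ts*, which makes it at least 3.02-fold higher (adjusted p = 1.20e-06). *DAN1*, a cell wall mannoprotein of anaerobic cells, rose from 33.2, 18.8 and 19.5, near the Tag level, to 327, 339 and 362, a log2 change of 3.89 ± 0.40 (adjusted p = 6.68e-07). *PGU1*, a secreted enzyme that degrades pectin, was well above the Tag level in both strains, at 310, 289 and 293 in wild-type and 3090, 3296 and 2593 in *top1Δtop2ts*. Its log2 change of 3.33 ± 0.17 (adjusted p = 2.94e-10) had arrays that agreed closely within each strain. *ZPS1*, a surface protein induced by lack of zinc, rose from 742, 515 and 644 to 3967, 5239 and 4092, a log2 change of 2.81 ± 0.20 (adjusted p = 1.09e-08). *MF(ALPHA)1*, the gene for the α-factor precursor and normally expressed in cells of mating type α, rose from 21.5, 6.42 and 28.0 to 103, 134 and 111, which is low in absolute terms. *ANS1*, a GPI-anchored protein, rose from 34.3, 12.0 and 34.6 to 287, 160 and 283.

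Several further rises were of genes for the cell wall, transport and protein folding. *DSE2*, a wall-degrading enzyme of daughter cells, was at 115, 135 and 90.1 in wild-type and at 466, 1124 and 603 in *top1Δtop2ts*, and *NCA3*, of the SUN family of wall proteins, at 146, 112 and 131 against 953, 724 and 611. Their log2 changes were 2.60 ± 0.22 (adjusted p = 8.89e-08) and 2.54 ± 0.24 (adjusted p = 2.77e-07), and no arrays overlapped. The proline permease *PUT4* (2.28), the peroxisomal thiolase *POT1* (2.10), the transporter *THI73* (2.05), the flocculin *FLO11* (1.95), the meiotic protein *ECM11* (1.94), the secreted glycoprotein *YGP1* (1.93) and the inducible chaperone *SSA3* (1.93) followed, with *PAU24* (2.29), whose probe set is shared. *SSA3* rose from 608, 489 and 624 to 2424, 2156 and 1958. The other 4 of the 20 were short reading frames without a gene name, of which *YBR182C-A* and *YBR072C-A* were at the Tag level in wild-type and at least 3.55-fold and 1.53-fold higher, and *YHR007C-A* and *YOR381W-A* changed by 2.24 and 2.13. The fitted change of *YBR072C-A*, 1.97, was 1.03 without wild-type replicate 3. All 20 falls and all 20 rises also passed under each of the 22 alternative scalings, fits and left-out arrays, except that 2 of the rises were too dim to enter the fit of genes above the Tag level. The alternatives reuse the arrays by which these genes were chosen, so this is no separate evidence.

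**Figure D2:**
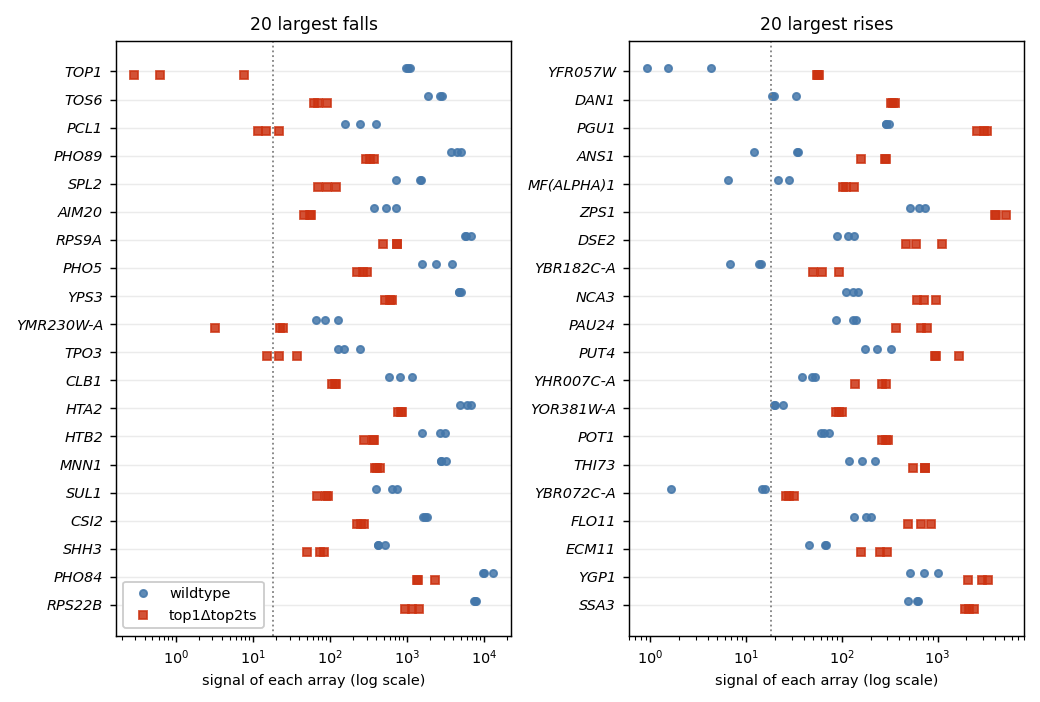
Spike-in scaled signal of each array (x axis, log scale) for the 20 largest falls (left) and the 20 largest rises (right), with wild-type as circles, *top1Δtop2ts* as squares and the 95th percentile of the Tag probe sets in the deposited signals, 18.4, as a dotted line. In none of the 40 genes, which were chosen as the largest changes, do the 3 squares and the 3 circles overlap. Of all genes, 70.9% lay without overlap lower in *top1Δtop2ts* and 4.9% higher.

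Genes were then read by function in 56 lists. The median change was lowest for the core histones and highest for genes of mating type α, and for most lists the 3 pairs of arrays gave medians on one side of that of all genes. The lists and their members were chosen with earlier results on these arrays known, so the counts describe them and are no separate evidence of a direction. They are to be read against the shares over all genes, of which 66.0% fell, 3.85% rose, 20.2% fell 2-fold or more and, with equal medians, 25.3% fell and 23.3% rose.

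**Figure D3:**
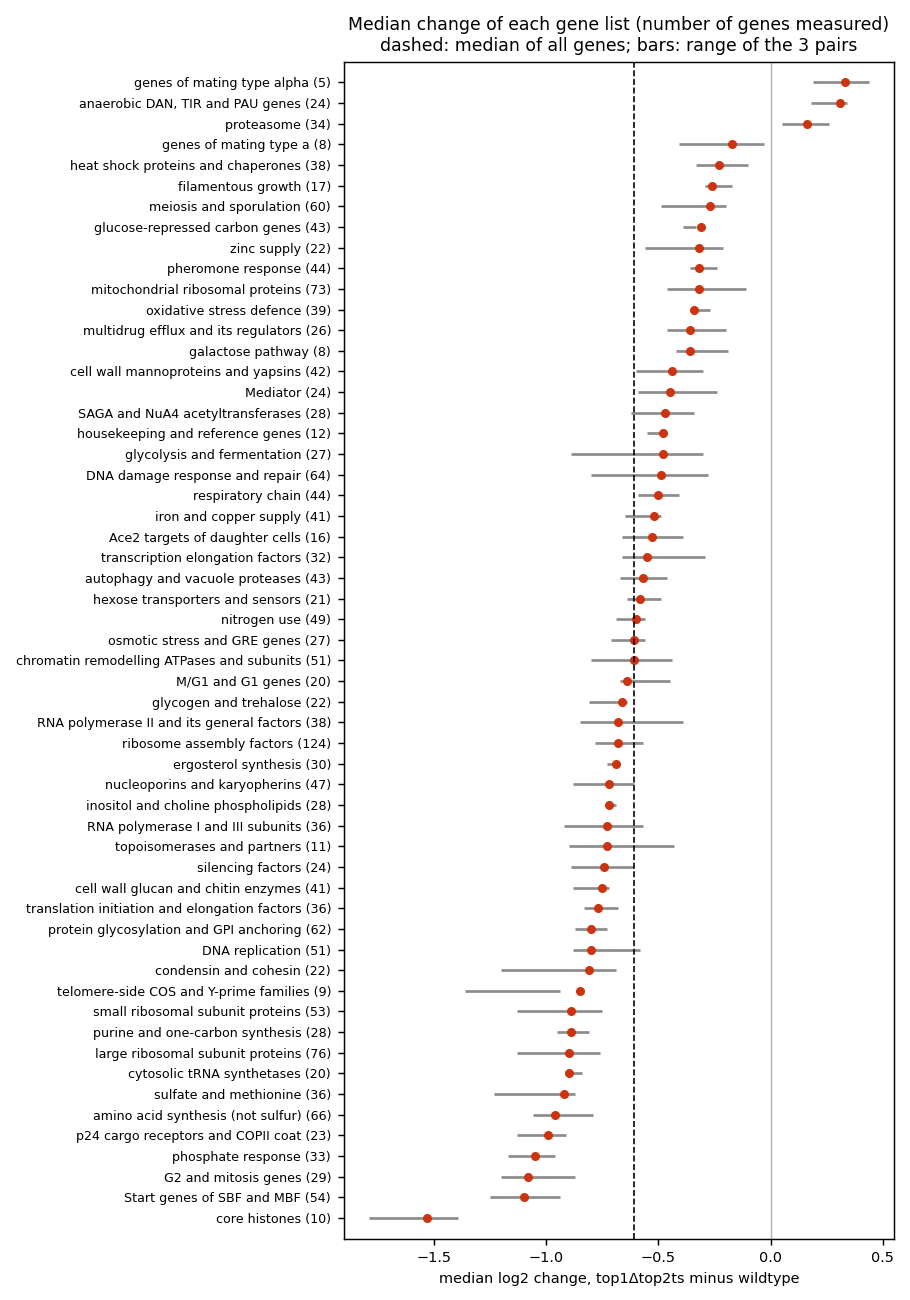
Median log2 change (x axis) of each gene list (y axis, with the number of genes measured) as points, with the range of the list's median over the 3 same-numbered pairs as bars and the median of all genes, -0.61, as a dashed line. Core histones lie furthest to the left at -1.53, and the proteasome at 0.16, the *DAN*, *TIR* and *PAU* genes at 0.31 and the mating type α genes at 0.33 lie to the right of 0.

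Histone genes, which are normally transcribed as cells enter S phase, fell most as a group. Of 10 measured genes for histones and their variants, 9 fell and 0 rose, 8 of them by 2-fold or more, against 20.2% of all genes. The median was -1.53, or 0.92 below that of all genes, and it stayed between 0.84 and 1.11 below in every alternative. With equal medians 8 fell and 1 rose. *HHT2*, a gene for histone H3, went from 9400, 7743 and 8705 to 2137, 2501 and 2050, a log2 change of -1.95 ± 0.18 (adjusted p = 1.80e-07), and the linker histone *HHO1* from 2168, 1838 and 1906 to 401, 320 and 540. *HHT1*, the other gene for histone H3, was the exception, at 7254, 6292 and 6525 in wild-type and 5612, 6899 and 6141 in *top1Δtop2ts*. Its arrays overlapped, with a log2 change of -0.11 ± 0.18 (adjusted p = 0.591), and it was the gene that rose with equal medians. *HHT1* and the pair of genes named next were singled out after their values were seen. *HTA1* and *HTB1*, the other genes for histones H2A and H2B, both changed by -1.50.

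Genes of the cell cycle followed. Of 54 measured genes that the factors SBF and MBF switch on at Start, 44 fell and 2 rose, and 30 fell 2-fold or more (55.6%, against 20.2% of all genes), with a median of -1.10. With equal medians 31 fell and 5 rose. Besides *TOS6*, *PCL1*, *MNN1* and *CSI2*, the list held the cohesin subunit *MCD1*, at 430, 469 and 455 in wild-type and 95.1, 53.5 and 77.3 in *top1Δtop2ts*, and the ribonucleotide reductase gene *RNR1*, at 2170, 2370 and 1853 against 578, 635 and 693. Their log2 changes were -2.62 ± 0.20 (adjusted p = 2.19e-08) and -1.74 ± 0.21 (adjusted p = 2.52e-06). The G1 cyclin *CLN1* changed by -1.75 and *CLN3*, the cyclin upstream of Start, by -1.33. The members that rose were the Cdc42p effector *GIC2* (0.91 ± 0.17, adjusted p = 1.59e-04) and the Pho85p cyclin *PCL2* (0.65), and *GIC2* is also a gene of the pheromone response. *PCL2* did not pass without replicate 3 of wild-type (0.48, adjusted p = 0.0918) or of *top1Δtop2ts* (0.43, adjusted p = 0.102), and its arrays overlapped.

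Of 29 genes of G2 and mitosis 27 fell and 0 rose, 16 by 2-fold or more, with a median of -1.08, and 19 fell and 0 rose with equal medians. *CLB2*, the main mitotic cyclin, went from 836, 887 and 641 to 140, 234 and 133, and *SWI5*, a factor that acts at the end of mitosis, from 483, 288 and 294 to 68.9, 81.1 and 47.5. The log2 changes were -2.26 ± 0.24 (adjusted p = 8.64e-07) and -2.42 ± 0.19 (adjusted p = 3.62e-08), and *TEM1*, the GTPase of mitotic exit, changed by -2.33. The 20 genes of the M/G1 boundary and G1 lay close to all genes, with 14 that fell, 0 that rose and a median of -0.64. Of 16 genes that Ace2p switches on in daughter cells 9 fell and 3 rose with a median of -0.53, and they went apart, from *ASH1*, a repressor of mating type switching (-2.58), to *DSE2* (2.60). With equal medians these counts were 4 and 5 for M/G1 and G1 and 5 and 6 for Ace2p targets.

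In contrast, genes of mating type and of the pheromone response lay above the median gene. All 8 measured genes specific to mating type a lay above the median of all genes, with a list median of -0.17. The a-factor gene *MFA1* fell by 0.44 on the log2 scale (adjusted p = 0.0293), and the other 7 did not pass, but 0 fell and 6 rose with equal medians, and *MFA1* itself was at 0.14 there (adjusted p = 0.584). The call of *MFA1* was lost without wild-type replicate 2 (-0.27, adjusted p = 0.18) and without replicate 1 (-0.47, adjusted p = 0.0645) or 2 (-0.37, adjusted p = 0.129) of *top1Δtop2ts*. The α-factor receptor *STE2* was at 10888, 15551 and 10194 in wild-type and 10423, 10882 and 10804 in *top1Δtop2ts*, with overlap. Wild-type replicate 2 held the highest value of *STE2*, *MFA1* and *MFA2*, and without it the list median lay 0.64 above that of all genes rather than 0.44.

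Of 44 genes of the pheromone response 19 fell and 6 rose, with a median of -0.32, while 3 fell and 18 rose with equal medians. *STE12*, the transcription factor of the response, rose from 2439, 3503 and 2287 to 4065, 4502 and 4604 (0.70 ± 0.17, adjusted p = 0.00189) without overlap, and *FUS1*, needed for cell fusion, was at 3814, 8344 and 3873 against 7077, 7313 and 6791, with overlap at wild-type replicate 2, without which it changed by 0.79 rather than 0.50, while its call was lost without replicate 1 or 3 of either strain (0.32 to 0.43). *STE12* was at 0.55 without the pair of replicate 3 (adjusted p = 0.0579). The arrest protein *FAR1* was at 1823, 3016 and 1657 against 2002, 2616 and 1853 (adjusted p = 0.885), and *PRM10* (-1.25), *DIG2* (-1.17) and *ECM18* (-1.17, and -0.73 without the pair of replicate 2) fell. Of the 5 measured genes of mating type α, *MF(ALPHA)1* and *MF(ALPHA)2* (0.62) rose, *STE3* and *SAG1* did not pass, and *HMLALPHA1*, which passed downwards, had means under the Tag level in both strains, so no fold is given for it. *MF(ALPHA)2* did not pass without replicate 1 (0.54) or 2 (0.49) of wild-type or replicate 1 of *top1Δtop2ts* (0.34), and *HMLALPHA1* did not without replicate 2 of *top1Δtop2ts* (-0.61).

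**Figure D4:**
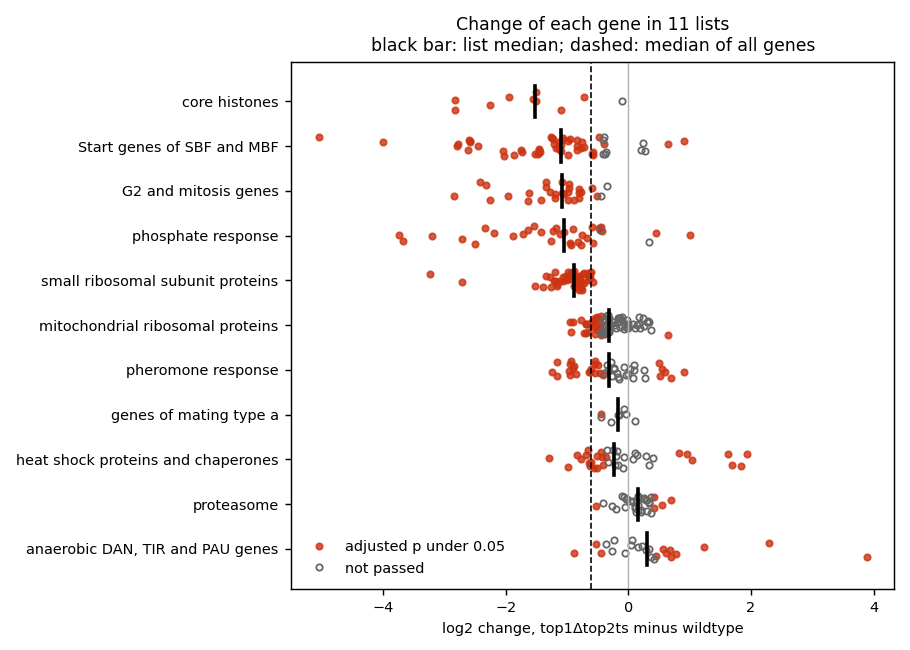
Log2 change of each gene (x axis) in 11 of the lists (y axis), filled where the adjusted p was under 0.05 and open where not, with the list median as a black bar and the median of all genes, -0.61, as a dashed line. The 53 small subunit ribosomal protein genes lie below 0, most of them close to their median, the 34 proteasome genes one around 0.16, and the Start, phosphate and anaerobic genes spread over several log2 units.

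The genes of the translation apparatus fell as a body in the cytosol. All 76 measured genes for large subunit proteins and all 53 for small subunit proteins fell after spike-in scaling, 29 and 17 of them by 2-fold or more, with medians of -0.90 and -0.89, while 32 and 18 fell and 0 of either rose with equal medians. The distance of -0.29 and -0.28 from all genes rested partly on wild-type replicate 2, without which it was -0.14 and -0.10. A few members lay far below the rest, and their paralogues, added after the values were seen, did not follow them. *RPS9A* changed by -3.23 but *RPS9B* by -0.81 ± 0.17, from 12815, 19268 and 13252 to 8918, 8297 and 8130. *RPL4B* went from 9910, 9665 and 9317 to 2965, 2548 and 1145 (-2.23 ± 0.22, adjusted p = 4.86e-07) and *RPL4A*, whose probe set is shared, changed by -0.75. *RPS22B* and *RPS22A* changed by -2.72 and -1.21. These differences between paralogues were not tested. *RPL41A* (-2.36), which has a shared probe set, rested on replicate 2 of *top1Δtop2ts*, without which it changed by -1.49.

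Of 20 cytosolic tRNA synthetase genes 19 fell and 0 rose (9 and 1 with equal medians), with a median of -0.90. *HTS1*, for the histidine enzyme, changed by -1.47 and *GLN4*, for the glutamine enzyme, by -1.16. Translation factors (33 of 36 fell, 0 rose, median -0.77, 8 and 2 with equal medians) and the 124 ribosome assembly factors (106 fell, 0 rose, median -0.68, 26 and 12 with equal medians) lay nearer to all genes. The 73 mitochondrial ribosomal protein genes lay on the other side. Of these 25 fell and 1 rose with a median of -0.32, but 2 fell and 36 rose with equal medians, and 63 of the 73 lay above the median of all genes. *MRPL20* rose from 296, 257 and 298 to 478, 426 and 427 (0.65 ± 0.18, adjusted p = 0.00392) with no overlap.

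Nutrient uptake and biosynthesis formed a further block of lower genes. Of 33 genes of the phosphate response 29 fell and 2 rose, 17 of them by 2-fold or more, with a median of -1.05, and 19 fell and 3 rose with equal medians. The vacuolar transport chaperone genes *VTC3* and *VTC1*, which make polyphosphate, went from 6816, 4904 and 6649 to 1429, 1411 and 1152 and from 7988, 8396 and 7435 to 3561, 3887 and 3091. These were log2 changes of -2.19 ± 0.19 (adjusted p = 1.24e-07) and -1.18 ± 0.15 (adjusted p = 6.69e-06). The vacuolar phosphatase *PHO8* changed by -0.59 ± 0.18 (adjusted p = 0.00773), which is the shift of the median gene, and was at 0.00 with equal medians. The members that rose were *GPP2*, a glycerol phosphatase of the osmotic response, from 1915, 1795 and 1759 to 3847, 3738 and 3337 (1.00 ± 0.17, adjusted p = 1.04e-04), and *GIT1* (0.45), a transporter of glycerophosphoinositol. The arrays of *GIT1* overlapped, and its call was lost without any 1 of the wild-type arrays (0.38 to 0.50) or without replicate 1 (0.41) or 2 (0.38) of *top1Δtop2ts*. *PHO8* changed by -0.49 without wild-type replicate 3 (adjusted p = 0.0545).

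Sulfate assimilation showed the same direction. Of 36 genes for sulfate and methionine 28 fell and 0 rose, 17 by 2-fold or more, with a median of -0.92, and 17 fell and 6 rose with equal medians. Besides *SUL1* these included *MET3*, the ATP sulfurylase, from 2598, 3586 and 2762 to 474, 543 and 425 (-2.63 ± 0.17, adjusted p = 5.11e-09), and *MET14* (-2.39) and *MET5* (-2.28) of the following steps. Of 66 genes for the synthesis of other amino acids 60 fell and 1 rose with a median of -0.96, and 37 fell and 3 rose with equal medians. *SER33*, *HIS4* and *TRP4* changed by -1.77, -1.71 and -1.43, and the aminotransferase gene *ARO9* was at 397, 191 and 332 in wild-type and 369, 352 and 582 in *top1Δtop2ts*. Its arrays overlapped and it was lower in the first pair, and its call (0.53, adjusted p = 0.0435) was lost without wild-type replicate 2 (0.29) or 3 (0.58) and without replicate 2 (0.54) or 3 (0.29) of *top1Δtop2ts*. In purine and one-carbon synthesis 22 of 28 fell and 3 rose (13 and 3 with equal medians), with a median of -0.89. Of these the glycine cleavage genes went up, with *GCV2* at 2019, 1874 and 2053 in wild-type and 4459, 4925 and 4038 in *top1Δtop2ts* (1.17 ± 0.17, adjusted p = 2.43e-05) and *GCV1* at 0.92.

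Metal and nitrogen genes were mixed. Of 22 zinc genes 9 fell and 3 rose with a median of -0.32 (4 and 8 with equal medians). Those that rose were *ZPS1*, the high-affinity transporter *ZRT1*, from 3214, 2661 and 3010 to 6566, 6118 and 5363 (1.02 ± 0.19, adjusted p = 1.93e-04), and *ZAP1* (0.49), the factor that activates both, whose call was lost without replicate 2 of wild-type (0.26, adjusted p = 0.204) or of *top1Δtop2ts* (0.42, adjusted p = 0.11). Of 49 nitrogen genes 33 fell and 4 rose around a median of -0.60 (13 and 12 with equal medians). The ammonium permease *MEP3* changed by -2.33, whereas *PUT4* and the serine deaminase *CHA1*, at 337, 258 and 371 against 1005, 1156 and 1133 (1.78 ± 0.18, adjusted p = 5.88e-07), rose. The 41 iron and copper genes (23 fell, 4 rose, median -0.52, 12 and 13 with equal medians) lay near the median of all genes.

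Genes of the secretory route lay below the median gene, and those of the wall on both sides of it. Of 23 genes for p24 cargo receptors and the COPII coat, which bud vesicles from the endoplasmic reticulum, 21 fell and 0 rose, 11 by 2-fold or more, with a median of -0.99 (13 and 1 with equal medians). *ERP2*, a p24 protein, changed by -1.77 and the coat GTPase *SAR1* by -1.52. Of 62 genes for glycosylation and GPI anchoring 53 fell and 0 rose with a median of -0.80 (27 and 5 with equal medians), with *GPI15* at -2.20 and *KRE2* at -1.48 after *MNN1*. Wall glucan and chitin enzymes (28 of 41 fell, 3 rose, median -0.75, 17 and 11 with equal medians) ran from *SIM1* (-2.13) to *NCA3*, and wall mannoproteins and yapsins (22 of 42 fell, 6 rose, median -0.44, 10 and 14 with equal medians) from *TOS6* to *FLO11*.

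Among the larger lists the proteasome stood highest. None of the 34 proteasome genes lay below the median of all genes. After spike-in scaling 29 of them did not pass, 4 rose and 1 fell, with a median of 0.16 and medians of 0.05 to 0.26 in the 3 pairs, and with equal medians 32 rose and 0 fell. The list lay between 0.73 and 0.87 above all genes in every alternative. *RPN10*, a ubiquitin receptor of the regulatory particle, rose from 2095, 2085 and 2125 to 3087, 3325 and 3908 (0.70 ± 0.17, adjusted p = 0.0017), and *PRE4*, a subunit of the core particle, from 3358, 3932 and 3133 to 5047, 5276 and 4891 (0.55 ± 0.18, adjusted p = 0.0107, and 0.45 with adjusted p = 0.0598 without replicate 3 of *top1Δtop2ts*). The arrays of neither gene overlapped. The gene that fell was *RPN4*, for the transcription factor that drives proteasome genes, from 3920, 3273 and 3798 to 2388, 2620 and 2571 (-0.53 ± 0.19, adjusted p = 0.0199), though with equal medians it was at 0.06 (adjusted p = 0.676). Its call was lost without replicate 1 or 3 of wild-type (-0.47 and -0.45) and without replicate 1 or 2 of *top1Δtop2ts* (-0.48 and -0.52).

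Of 38 heat shock and chaperone genes 16 fell and 7 rose, with a median of -0.23, whereas with equal medians 2 fell and 21 rose. The rises included stress-inducible members. The small heat shock proteins *HSP26* and *HSP12* went from 3387, 1454 and 3761 to 8335, 9042 and 11195 and from 4023, 1604 and 3717 to 9242, 9108 and 9591, in each case with the lowest value in wild-type replicate 2. The log2 changes were 1.84 ± 0.23 (adjusted p = 5.55e-06) and 1.69 ± 0.25 (adjusted p = 1.95e-05), and *SSA4*, an inducible chaperone like *SSA3*, changed by 1.63. The falls included *SNL1* (-1.30), *LHS1* (-0.99), *HCH1* (-0.84) and *CUR1* (-0.78). Of 39 genes of oxidative stress defence 19 fell and 3 rose with a median of -0.34 (7 and 18 with equal medians). *TRX1*, a cytosolic thioredoxin, went from 5588, 6226 and 5300 to 1365, 1887 and 1185 (-1.97 ± 0.17, adjusted p = 8.89e-08), while the sulfiredoxin *SRX1* rose by 1.18 and the peroxisomal catalase *CTA1* by 1.29. In the osmotic list, which lay at the median of all genes (-0.61, 19 of 27 fell, 3 rose, 6 and 5 with equal medians), *GRE2*, a reductase known under the systematic name *YOL151W*, rose from 305, 404 and 325 to 784, 967 and 735 (1.27 ± 0.15, adjusted p = 2.62e-06) and *GRE1* by 1.70, and the kinase *HOG1* changed by -1.39.

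The list of *DAN*, *TIR* and *PAU* genes, which are expressed without oxygen, and their regulators lay above the median gene. Of its 24 measured genes 9 rose, 3 fell and 12 did not pass, with a median of 0.31. With equal medians 19 rose and 0 fell. Besides *DAN1* and *PAU24* the seripauperin gene *PAU5* rose from 257, 205 and 227 to 542, 440 and 640 (1.23 ± 0.18, adjusted p = 2.00e-05). Of the 24 genes 13 have shared probe sets, among them *PAU5*, so single *PAU* genes are uncertain, and the 11 others had a median of 0.45. The members that fell were the repressor gene *MOT3* (-0.89), *PAU8* (-0.53) and *HEM13*, of which *PAU8* and *HEM13* were above 0 with equal medians. *PAU8* and *HEM13* did not pass without replicate 1 of *top1Δtop2ts* (-0.27 and -0.28), without replicate 1 of wild-type (-0.46 and -0.38) or without replicate 3 of wild-type (-0.44 and -0.40), nor *HEM13* without replicate 3 of *top1Δtop2ts* (-0.44), and *MOT3* was at -0.55 without replicate 2 of *top1Δtop2ts*. Genes of filamentous growth (7 of 17 fell, 5 rose, median -0.26, 3 and 8 with equal medians) were divided, with *PGU1*, *FLO11* and its activator *FLO8* up, the latter from 1154, 901 and 1161 to 2505, 2265 and 2130 (1.11 ± 0.16, adjusted p = 2.01e-05), and *SVS1* (-2.59) and *MGA1* (-2.07) down. Of 60 meiosis and sporulation genes 26 fell and 11 rose with a median of -0.27 (10 and 25 with equal medians). The inducer of meiosis *IME1* went from 911, 760 and 879 to 253, 238 and 241 (-1.80 ± 0.18, adjusted p = 6.03e-07), and *SPS100* (1.35) and *OSW1* (1.21), of the spore wall, rose from wild-type signals of at most 63.9.

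The transcription machinery lay close to the median gene. Medians were -0.68 for RNA polymerase II and its general factors (29 of 38 fell), -0.73 for RNA polymerases I and III (27 of 36), -0.55 for elongation factors (20 of 32), -0.47 for SAGA and NuA4 (17 of 28), -0.45 for Mediator (13 of 24) and -0.61 for chromatin remodelling complexes (37 of 51). A rise was seen for 1 gene of these lists, *VPS72* of the SWR1 complex (0.74), and with equal medians each list held genes on both sides. The remodelling subunit *SWI1* was a larger fall, from 1665, 1254 and 1392 to 390, 323 and 379 (-1.98 ± 0.19, adjusted p = 2.85e-07), as was the silencing deacetylase *SIR2*, from 1230, 1123 and 1258 to 285, 332 and 358 (-1.89 ± 0.17, adjusted p = 1.77e-07). Of 24 silencing genes 15 fell (62.5%, against 66.0% of all genes) and 0 rose, with a median of -0.74 (10 and 4 with equal medians).

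DNA replication genes were lower (42 of 51 fell, 0 rose, median -0.80, 22 and 5 with equal medians), as were condensin and cohesin (18 of 22 fell, 1 rose, median -0.81, 9 and 2), with *CDC7*, the kinase that fires origins, at -1.58 and *SMC3* at -1.53. Of 64 genes of the DNA damage response 38 fell and 3 rose with a median of -0.49 (12 and 18 with equal medians). Its kinase *DUN1* went from 1071, 843 and 1026 to 256, 250 and 214 (-2.03 ± 0.20, adjusted p = 4.42e-07), while the damage-induced gene *HUG1* was at 550, 240 and 369 against 1054, 539 and 938. The *HUG1* arrays overlapped between the strains although the value was higher in each pair (1.15 ± 0.18, adjusted p = 3.30e-05), and the checkpoint gene *DDC1* rose by 1.18.

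Several other genes that the study followed by quantitative PCR were measured here in rich glucose medium. The galactokinase *GAL1* was at 265, 159 and 238 in wild-type and 290, 379 and 271 in *top1Δtop2ts* (0.52 ± 0.21, adjusted p = 0.0345). The arrays lay just apart, the pairs gave 0.13, 1.25 and 0.19, and the call rested on replicate 2, being lost without it in wild-type (0.25, adjusted p = 0.275) or in *top1Δtop2ts* (0.32, adjusted p = 0.24). *GAL7* (0.30, adjusted p = 0.213) and *GAL10* (0.47, adjusted p = 0.0817) did not pass, nor did *YAT1* (0.34, adjusted p = 0.0698), and the permease *GAL2* fell from 90.7, 58.7 and 67.0 to 49.5, 41.1 and 46.8 (-0.64 ± 0.22, adjusted p = 0.0148, and -0.05 with equal medians), and did not pass without wild-type replicate 1 (-0.49) or replicate 2 of *top1Δtop2ts* (-0.55). The alcohol dehydrogenase *ADH2* (-1.22 ± 0.18, adjusted p = 2.79e-05) and the acetate transporter *ADY2* (-1.06 ± 0.20, adjusted p = 2.09e-04) fell beyond the median gene, and *INO1*, of inositol synthesis, went from 1318, 1148 and 1364 to 793, 532 and 738 (-0.91 ± 0.17, adjusted p = 1.73e-04). Of their reference genes *ACT1* changed by -0.48 ± 0.17 (adjusted p = 0.0175; 0.11 with equal medians), *TDH1* by -0.23 ± 0.17 (adjusted p = 0.251; 0.36 with equal medians) and *ESC1* by -0.19 ± 0.16 (adjusted p = 0.308; 0.40 with equal medians). *ACT1* did not pass without replicate 2 of wild-type (-0.31) or of *top1Δtop2ts* (-0.38). Among 43 glucose-repressed carbon genes 19 fell and 5 rose with a median of -0.31 (7 and 19 with equal medians), from *MAL32* at -1.78 to *POT1*.

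The orientation of a gene's neighbours made little difference to the median change. Genes with a divergent upstream neighbour (2807) had a median of -0.59 and those with a tandem one (2632) of -0.62, and a convergent or a tandem downstream neighbour gave -0.63 (2855 genes) and -0.58 (2586 genes). Over the 3 pairs of arrays the medians ran from -0.68 to -0.46 (divergent) and -0.71 to -0.52 (tandem) by upstream neighbour. By downstream neighbour they ran from -0.76 to -0.50 (convergent) and -0.63 to -0.48 (tandem). The gaps between classes were not tested. The 98 measured genes among the 5 outermost of a chromosome arm had a median of -0.35, those in positions 6 to 10 one of -0.51, in positions 11 to 20 one of -0.57 and the 4920 further inside one of -0.62. The share of genes that fell 2-fold was alike in the outermost and the innermost class, at 21.4% and 20.4%, while 3.06% and 0.955% rose 2-fold, which is 3 and 47 genes. Reading frames without a gene name (499) were at -0.49.

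The changes of adjacent genes were weakly and positively correlated. Over 1287 divergent pairs of measured neighbours the changes were correlated with r = 0.17, and over 1331 convergent and 2399 tandem pairs with r = 0.09 each, given as a description since neighbours share arrays and genes recur. Some neighbours went together, with *HTA2* and *HTB2* down, *PHO3* (-1.72) and *PHO5* down, *YPS1* (-2.14) and *YPS3* down, *SUL1*, *PCA1* (-1.86) and *PHO89* down in a row, and *HPF1* (1.80) and *ZPS1* up from a shared intergenic region. Others split, and these pairs were picked after their values were seen. *HSP26* rose by 1.84 beside *YBR071W*, which changed by -1.92 from 1282, 789 and 1136 to 216, 295 and 330, *NCA3* rose beside the divergent histone chaperone gene *ASF1* (-1.08), and in the stretch *ZPS1*, *FRE7*, *GRE2* and *DCP1* the changes alternated at 2.81, -1.28, 1.27 and -1.57. Both members fell 2-fold in 74 of 1287 divergent, 63 of 1331 convergent and 131 of 2399 tandem pairs. They went 2-fold in opposite directions in 4, 4 and 15. Over all genes 20.2% fell and 1.16% rose 2-fold or more, and the pair counts were not tested against these shares.

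Set beside the single mutants, the genes with the largest changes fell into different patterns. In the same fit 2554 genes (46.9%) were lower and 452 (8.3%) higher in *top1Δtop2ts* than in *top1Δ*, and 2534 (46.5%) lower and 367 (6.74%) higher than in *top2ts*. *TOS6* had a mean of 2095 ± 61.9 (SD, n = 3) in *top1Δ* and 2647 ± 856 in *top2ts*, so that *top1Δtop2ts* differed from them by -4.83 and -5.12 on the log2 scale (adjusted p = 3.85e-12 and 2.39e-12). *PCL1*, *HTB2* and *RPS9A* were likewise higher in both single mutants than in *top1Δtop2ts*, at 331 ± 88.3 and 285 ± 157, 2562 ± 348 and 3783 ± 1967, and 4002 ± 810 and 5750 ± 1877. *PHO5* was low in *top1Δ* (246 ± 82.4) and *top2ts* (291 ± 96.1) as well, and *top1Δtop2ts* differed from them by 0.15 (adjusted p = 0.584) and -0.08 (adjusted p = 0.787). *PHO89* (684 ± 93.0 and 434 ± 85.3) and *SPL2* (210 ± 65.5 and 75.6 ± 24.4) were low in both, and below *top1Δ* but not *top2ts* in the double mutant (for *PHO89* adjusted p = 2.32e-04 and 0.0919, for *SPL2* 0.00125 and 0.289). *PHO84* lay between, at 6415 ± 950 and 5281 ± 972. *SHH3* was low in *top1Δ* (115 ± 2.64) but not in *top2ts* (478 ± 50.2).

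Several of the rises were seen against the single mutants too. *PGU1* was at 143 ± 8.87 in *top1Δ* and 134 ± 31.6 in *top2ts*, below the wild-type arrays, and *top1Δtop2ts* was higher by 4.38 and 4.51 (adjusted p = 3.85e-12 and 2.39e-12). *ZPS1*, at 591 ± 89.9 and 578 ± 137, and *GRE2*, at 342 ± 51.8 and 319 ± 64.0, were near wild-type in the single mutants, and *RPN10* was at 2141 ± 252 and 2226 ± 354. *CHA1* differed, with 264 ± 27.1 in *top1Δ* and 1796 ± 352 in *top2ts*, from which the double mutant differed by -0.69 (adjusted p = 0.00424), and *GIC2* was at 2435 ± 530 in *top2ts*, from which *top1Δtop2ts* differed by 0.03 (adjusted p = 0.899).

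**Figure D5:**
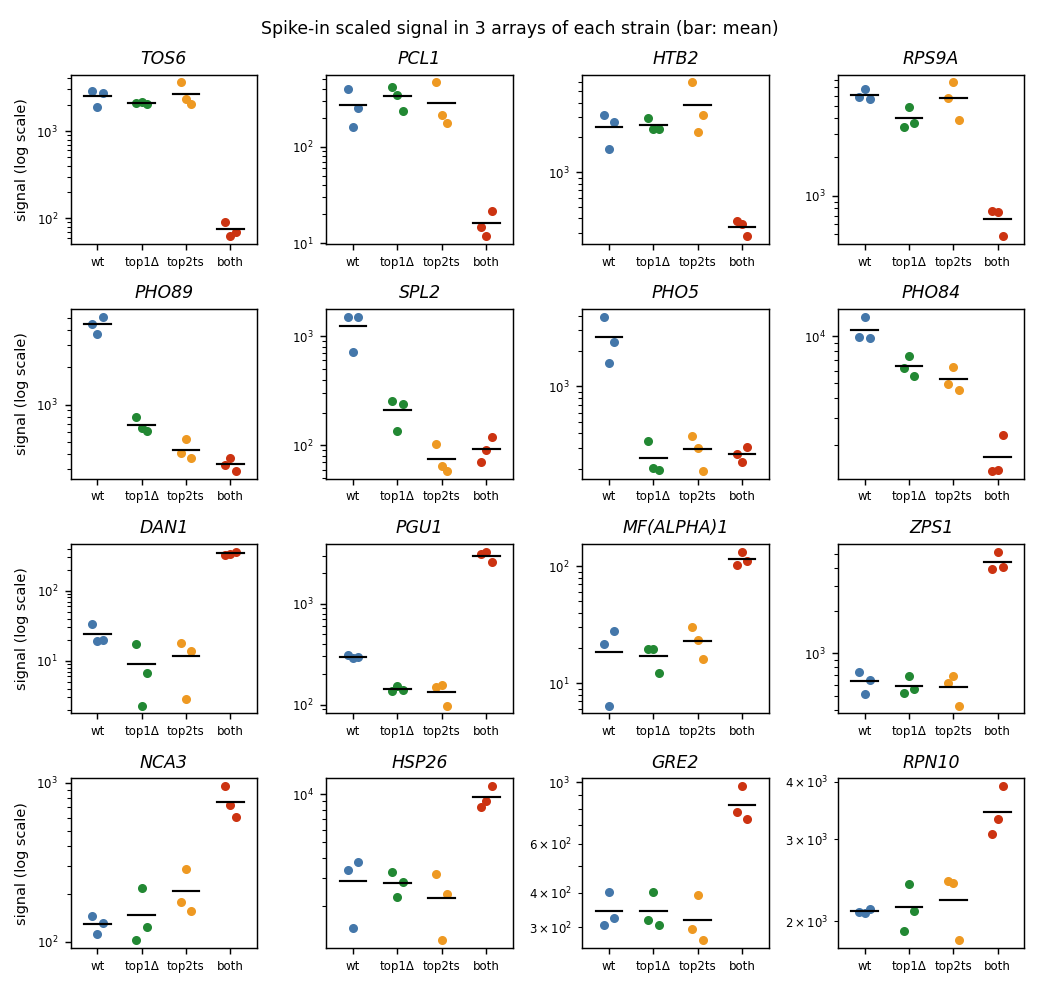
Spike-in scaled signal (y axis, log scale) of 16 genes in the 3 arrays of wild-type (wt), *top1Δ*, *top2ts* and *top1Δtop2ts* (both), with the mean as a bar. *TOS6*, *PCL1*, *HTB2* and *RPS9A* are lowest in the column of both, *PHO5* is low in all 3 mutants, and the genes of the lower rows stand higher in *top1Δtop2ts* than in the other strains.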

How the data were processed

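The 3 arrays of *top1Δtop2ts* and the 3 of wild-type, from independent experiments per the methods, were compared. Per the labels, the authors made the deposited, linear signal intensities with MAS5 for each probe set. The methods describe normalization to spike-ins, yet the deposited spike-in levels differed between arrays. Of 10928 probe sets, 5028 were at 0 in every array, and 5498 were paired with 1 gene, giving 5449 genes. Where several probe sets matched a gene, their log2 values were averaged, 4 zeros were set to 0.1, and no dim gene was removed. Log2 signals were scaled to the mean of 42 spike-in probe sets (*dap*, *lys*, *phe*, *thr*, *trp*). The 6 for *trp* were at background (at most 17.1). limma 3.58.1 (R 4.3.3) was fitted to all 12 arrays with the replicate number as a block (6 residual degrees of freedom), with Benjamini-Hochberg adjusted p-values and a threshold of 0.05. Tested on simulated data, the fit called 73 of 100 genes given a change of 1 (log2), 97 of 100 given 2, and 8 genes given none, among 5449. The simulated data held as many rises as falls and no error in the scaling of whole arrays. They therefore do not bear on the size of the general fall. Where a group's mean deposited signal lay at or under the Tag level, 18.4, the fold is a bound, from mean log2 signals with the dimmer group's arrays raised to the Tag level, scaled like the signals (15.1, 25.6 and 16.8 in wild-type, 15.0, 26.2 and 14.5 in *top1Δtop2ts*). Summed signals were compared in Python 3.11.15 with scipy 1.17.1. The number of arrays limits the precision.

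Named genes were *TOP1* and *TOP2*, the 20 largest falls and rises that passed with 1 sign in all pairs and a mean above the Tag level in either strain, up to 4 members of each list in its main direction and 2 in the other, and the genes of the quantitative PCR. *ASF1*, *DCP1*, *FAR1*, *FLO8*, *FRE7*, *FUS1*, *HEM13*, *HHT1*, *HPF1*, *HSP12*, *HTA1*, *HTB1*, *MFA2*, *PCA1*, *PHO3*, *RPL4A*, *RPS22A*, *RPS9B*, *SAG1*, *SSA4*, *STE2*, *STE3*, *YBR071W* and *ZAP1* fall outside this rule and were chosen after their values were seen. The comparison, members and lists were chosen with earlier results of these data known. Alternatives concerned the scaling, the block, the arrays fitted, the prior variance, low signals and each array left out. Gene names and order came from assembly R64.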

Additional observations from a re-analysis of the deposited data

Results flagged for a closer look

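Of 218 probe sets that the probe table pairs with no single gene and that lie outside the gene comparisons, 10 had all 3 *top1Δtop2ts* arrays above all 3 wild-type arrays by 2-fold or more and 48 had them below by as much, around a median change of -0.56. The largest rise was that of probe set 1776828_at, which gave spike-in scaled signals of 339, 190 and 303 in wild-type and 1260, 1300 and 1110 in *top1Δtop2ts*, a log2 change of 2.18 (2.79 relative to the median gene). This is a signal in data that the report does not otherwise use, and it was not tested.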

How the results depend on the processing

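With arrays set to equal medians 1376 genes fell and 1270 rose, 193 and 233 by 2-fold or more, around a median of -0.02, and with quantile normalization 1370 and 1372, 205 and 231, around 0.00. The median in place of the mean of the spike-ins gave 1728 falls of 2-fold or more and a median of -0.77. Without the *trp* probe sets, which were at background, 3963 genes fell, 1387 of them by 2-fold or more, and 182 rose. The median was then -0.69 and the summed signal 58.8% of wild-type. Scaling to the hybridization controls, added after seeing the data, left 237 falls, all of 2-fold or more, 188 rises of 2-fold or more and a median of -0.10, and without replicate 2 gave 1294 falls, 126 rises and a median of -0.50. Equal medians without replicate 2, also added, gave 1124 and 1098, 209 and 273, and a median of 0.00. The size of the general fall thus depended on the scaling. When single arrays or replicate numbers were left out, 2703 to 3836 genes fell, 165 to 207 rose, 894 to 1442 fell 2-fold or more, 54 to 76 rose 2-fold or more, the median lay between -0.70 and -0.54, and the summed signal between 60.6% and 64.7% of wild-type. With no replicate block 3359 genes fell and 179 rose, 1102 and 64 by 2-fold or more. The deviations of same-numbered wild-type and *top1Δtop2ts* arrays from their group means correlated at 0.023, -0.011 and -0.028. Between these strains the pairing thus rests on the shared number of the experiment. Over all strains, 10 of 18 same-numbered pairs of arrays correlated above 0.1. Why calls were lost without the block was not tested.

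The direction turned for a few genes near the median gene. With equal medians these were *ACT1* (0.11), *ESC1* (0.40), *HEM13* (0.15), *HHT1* (0.48), *MFA1* (0.14), *PAU8* (0.06), *PHO8* (0.00), *RPN4* (0.06), *STE2* (0.42), *STE3* (0.36) and *TDH1* (0.36). With quantile normalization they were *ACT1* (0.10), *ESC1* (0.47), *HEM13* (0.29), *HHT1* (0.64), *MFA1* (0.26), *PAU8* (0.11), *PHO8* (0.08), *RPN4* (0.12), *STE2* (0.51), *STE3* (0.12) and *TDH1* (0.49). Scaled to the hybridization controls they were *ACT1* (0.03), *ESC1* (0.32), *HEM13* (0.07), *HHT1* (0.40), *MFA1* (0.06), *STE2* (0.34), *STE3* (0.28) and *TDH1* (0.28), and without replicate 2 *STE2* (0.17) and *TDH1* (0.08). With equal medians and without replicate 2 they were *ACT1* (0.39), *ESC1* (0.36), *HEM13* (0.04), *HHT1* (0.44), *MFA1* (0.41), *MOT3* (0.15), *RPL4A* (0.10), *RPN4* (0.03), *RPS9B* (0.05), *STE2* (0.68), *STE3* (0.21) and *TDH1* (0.58). *FAR1* turned with the median of the spike-ins (-0.13) and without *trp* (-0.05), and *MFA2* with the former (-0.05). With arrays left out *FAR1* lay between -0.04 and 0.15, *HHT1* between -0.23 and 0.05 and *STE2* between -0.29 and 0.01. Of 3407 values of the 155 named genes under the alternatives, 3144 kept direction and side of the threshold, 184 kept the direction and lost the threshold, 25 passed it only there and 54 turned. Promoter motifs were not analysed here. Signals near the Tag level limit the dimmest genes to bounds on their fold.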
